A study of Homo sapiens with 4 samples.

Results

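The 39 HOX genes of the HOXA, HOXB, HOXC and HOXD clusters were examined for peaks of the metal-response transcription factor MTF-1 in MDA-MB-231 cells, an established human breast cancer cell line. Members were chosen by name alone, as the protein-coding genes of GENCODE v44 on hg38 that are called HOX followed by a cluster letter and a number, and they are 39 of 20033 protein-coding genes on chromosomes 1 to 22, X and Y. HOXA has 11 of them, HOXB 10, HOXC 9 and HOXD 9. MTF-1 was mapped by CUT&RUN, in which an antibody tethers a nuclease to the bound factor and the DNA it releases is sequenced. The untreated control cells were kept in ordinary medium and gave 2 libraries. The cadmium cells were passaged in cadmium sulfate, first at 5 µM and then for at least 10 passages at 10 µM, and gave 2 libraries. Both conditions come from the same line, and the sources do not say how many separately passaged populations each one holds. Selection during passaging and the metal itself cannot be told apart. The authors merged the libraries of a condition before peak calling, which left 1 peak list per condition, with positions and no height, score or read count. Depth is therefore unknown, no spread between replicates could be measured from these lists, and every difference below is a description of 2 lists with no test. Narrower or fewer peaks in a list and a shallower library cannot be told apart. The identity of the cells could not be checked against marker genes, since peaks carry no expression values.

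HOX genes encode homeodomain transcription factors that give cells their position along the body axis. Within a cluster the genes lie in the order of their paralog numbers, from the anterior group 1 to the posterior group 13, and they are expressed in that order in the embryo. The clusters are rich in CpG dinucleotides, carry many noncoding RNA genes, and are held silent or active in blocks by Polycomb and Trithorax proteins. MTF-1 is a zinc finger factor that activates metallothionein genes through metal response elements.

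Most HOX transcript starts lay outside MTF-1 peaks in either condition. Only HOXA13, HOXB9, HOXC5, HOXD1 and HOXD4 had the start of their canonical transcript under a peak, 5 of 39 genes (12.8%) in the control list and the same 5 in the cadmium list. Over all protein-coding genes the share was 66.3% in the control list and 64.3% in the cadmium list. No HOX start was under a peak in 1 list alone, while 3.20% of all starts were under a peak in control only and 1.21% in cadmium only. The peaks of the clusters mostly lay between the starts, and together they covered less sequence in the cadmium list, most of all in HOXC.

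Sequences are shown here for the starts that had a peak, for starts with a metal response element core that had none, and for sites found in a single list. They are given 5′ to 3′ in lower case, with matches to 3 motifs on either strand in capitals. The AP-1 motif was taken as TGACTCA or its reverse complement TGAGTCA. The forkhead motif was taken as GTAAACA or ATAAACA, or with a T before the last letter as GTAAATA or ATAAATA. The core of the metal response element was taken as TGCACNC or else as TGCGCNC. None of these strings contains another. RefSeq promoters on GRCh38.p14, which uses the hg38 coordinates, were listed for 20 of the 39 genes, at 26 distinct starts. The first 3 promoters below, of which HOXD1 and HOXD4 were chosen after their values were seen, lay wholly under a peak in both lists. They are the 250 bases before the start of HOXA13, needed for limb and genital development (chr7:27200092-27200341, minus strand), of HOXD1 (chr2:176188418-176188667, plus strand) and of HOXD4, a gene of the hindbrain and neck region (chr2:176151300-176151549, plus strand).
HOXA13 promoter: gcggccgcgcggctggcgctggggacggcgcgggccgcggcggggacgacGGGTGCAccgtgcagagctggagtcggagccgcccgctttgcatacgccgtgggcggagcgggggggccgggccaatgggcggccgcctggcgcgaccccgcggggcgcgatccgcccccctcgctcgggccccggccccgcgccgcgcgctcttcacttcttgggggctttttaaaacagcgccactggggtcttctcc
HOXD1 promoter: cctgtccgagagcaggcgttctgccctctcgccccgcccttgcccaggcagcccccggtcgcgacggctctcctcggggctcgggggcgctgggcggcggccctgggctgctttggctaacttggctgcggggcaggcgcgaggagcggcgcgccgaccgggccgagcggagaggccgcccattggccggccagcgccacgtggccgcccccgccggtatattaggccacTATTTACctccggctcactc
HOXD4 promoter: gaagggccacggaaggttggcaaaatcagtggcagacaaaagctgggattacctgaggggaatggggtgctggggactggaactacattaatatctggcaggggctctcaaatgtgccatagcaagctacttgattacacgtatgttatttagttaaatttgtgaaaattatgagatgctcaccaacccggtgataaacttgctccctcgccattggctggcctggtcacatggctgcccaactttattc

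The next 2 promoters, also chosen after their values were seen, held the core of the metal response element and had no base under a peak in either list. HOXA4 (chr7:27130758-27131007, minus strand) had 2 matches in 250 bases and HOXD12 (chr2:176099545-176099794, plus strand) had 1.
HOXA4 promoter: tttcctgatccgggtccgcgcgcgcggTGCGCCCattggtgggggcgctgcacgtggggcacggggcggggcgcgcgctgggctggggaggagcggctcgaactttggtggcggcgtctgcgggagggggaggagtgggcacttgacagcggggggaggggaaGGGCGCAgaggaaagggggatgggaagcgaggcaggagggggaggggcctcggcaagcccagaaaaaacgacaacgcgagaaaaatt
HOXD12 promoter: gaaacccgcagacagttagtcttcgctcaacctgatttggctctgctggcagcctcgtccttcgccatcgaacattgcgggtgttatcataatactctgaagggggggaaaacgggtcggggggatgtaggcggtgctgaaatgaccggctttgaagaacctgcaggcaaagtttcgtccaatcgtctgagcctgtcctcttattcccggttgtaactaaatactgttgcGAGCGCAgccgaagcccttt

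The promoters with a peak overlapped those without in base composition. Over these 250 bases the GC content was 78.0% for HOXA13, 74.8% for HOXD1 and 47.6% for HOXD4, all under a peak, and 70.0% for HOXA4 and 53.2% for HOXD12, which had none. The 300-base promoters around the 21 distinct HOX starts with no peak in either list had a median GC content of 58.0% and a median CpG ratio, observed over expected, of 0.849, against 58.7% and 0.579 over 35116 RefSeq promoters. Among 16474 CpG-rich promoters, taken as those with a GC content of at least 50% and a CpG ratio of at least 0.6, limits set after the data were seen, 84.7% had a base under a control peak and 83.5% under a cadmium peak. Of the 19 CpG-rich HOX promoters, 4 had a base under a control peak (21.1%) and 2 under a cadmium peak (10.5%). The listed HOX promoters are mostly those of HOXA and HOXD, several of them of HOXA3. From HOXB only HOXB1 is listed, and from HOXC only the start shared by HOXC4 and HOXC5. The canonical starts of HOXB9 and HOXC5, both under a peak in each list, are not listed, so these shares say little about HOXB and HOXC. The core of the metal response element was in 10 of 26 HOX promoters (38.5%) and in 29.6% of all promoters, the forkhead motif in 6 (23.1%) against 13.6%, and AP-1 in none against 4.95%.

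Each cluster was measured from its outermost HOX gene to the other, plus 5 kb at either end. These spans are chr7:27087993-27205091 for HOXA, chr17:48523526-48733750 for HOXB, chr12:53933831-54061030 for HOXC and chr2:176087721-176195907 for HOXD. The map of the peaks along the clusters shows where they lay. The control list had 6 peaks in HOXA, 11 in HOXB, 7 in HOXC and 5 in HOXD, 29 in all. The cadmium list had 5, 9, 4 and 6, or 24 in all. That is 51.5 peaks per Mb in control and 42.7 in cadmium, against 22.4 and 19.5 over the genome, so the clusters were denser in peaks than the genome as a whole. Where peaks of the lists overlapped by at least 1 base they were joined into a site, which gave 31 sites. Of these, 22 were shared (71.0%), 7 were found in control alone (22.6%) and 2 in cadmium alone (6.45%). Among all 77069 sites the shares were 63.1%, 25.1% and 11.8%.

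**Figure D1:**
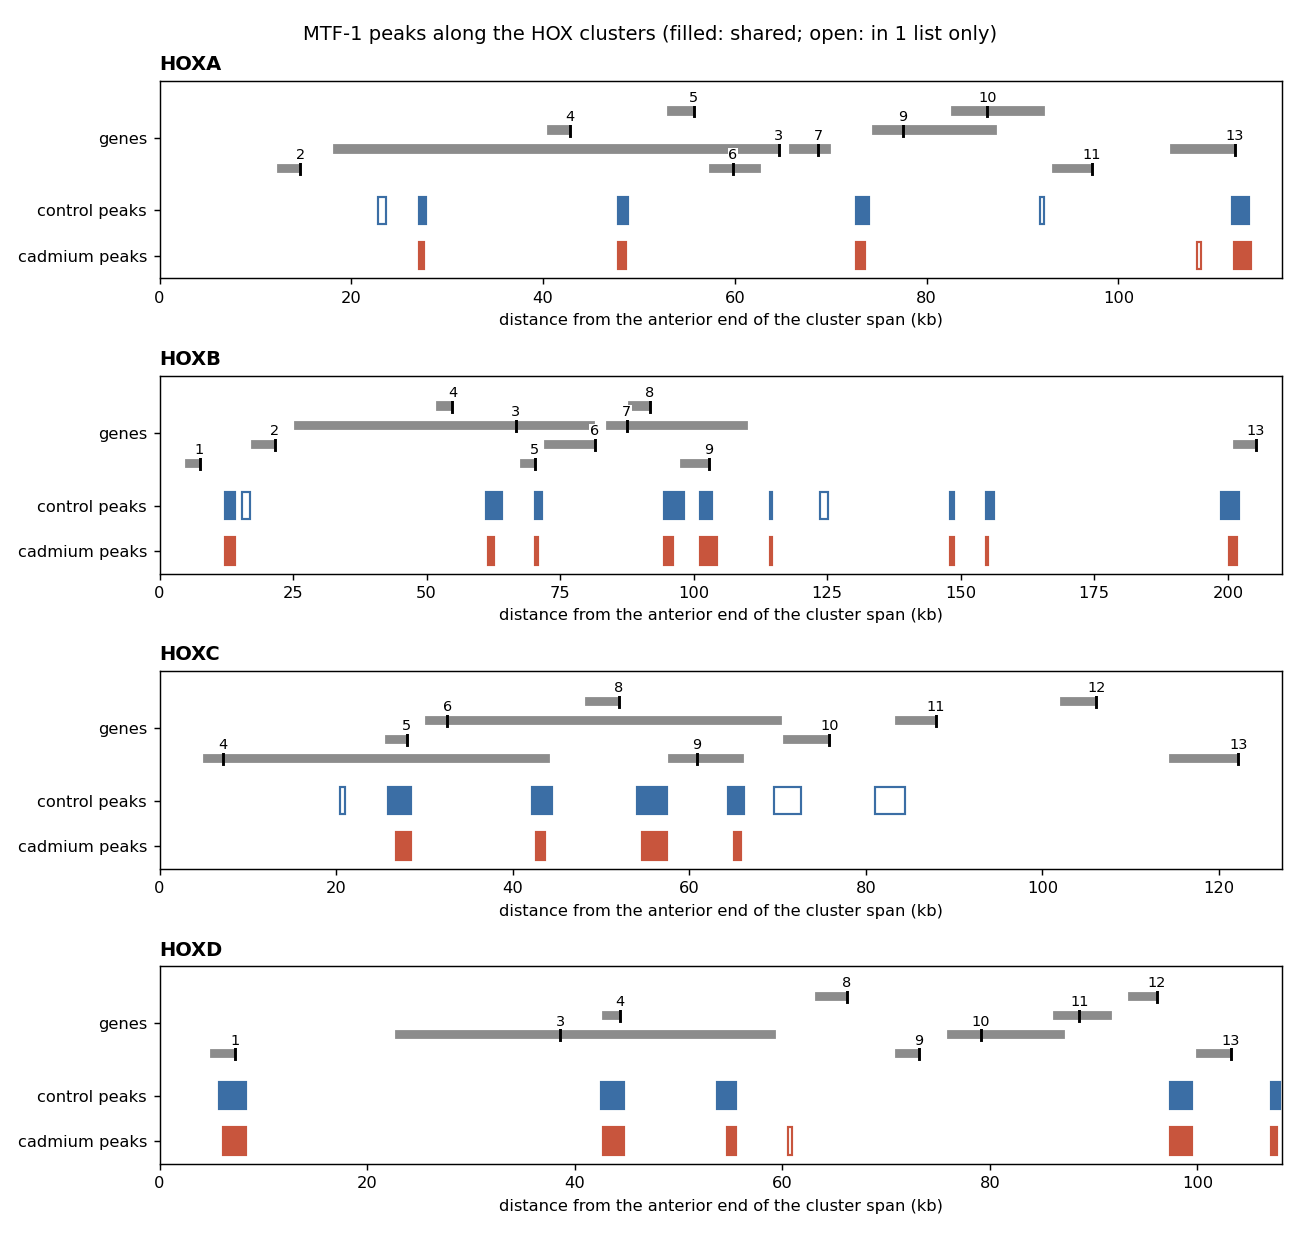
MTF-1 peaks along the HOXA, HOXB, HOXC and HOXD clusters, in kb from the anterior end of each span, with gene records as grey bars (1 gene left out), canonical starts as black ticks numbered by paralog, and control (blue) and cadmium (red) peaks below. Filled peaks are shared between the lists and open peaks are in 1 list only, 7 in control and 2 in cadmium; most ticks have no peak beneath them.

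The longest stretch with no peak held from 2 to 5 canonical starts, depending on the cluster and the list. These counts were not set against the share of the sequence that the stretches take up. In the 4 clusters the average spacing was 1 peak in 19.4 kb in control and 1 in 23.4 kb in cadmium. In the genome it was 1 peak in 44.6 kb and 1 in 51.4 kb. These are averages, while the stretches given here are the longest within each span, so the lengths cannot be compared directly. In HOXD no peak of the control list lay between 176098600 and 176140400, a gap of 41.8 kb (36.4 kb in the cadmium list) that holds the starts of HOXD8, HOXD9, HOXD10, HOXD11 and HOXD12, genes of the trunk and limb. In HOXC the first 42.8 kb of the span, with the starts of HOXC11, HOXC12 and HOXC13, had no control peak. In the cadmium list the first 61.4 kb had none, and this included the start of HOXC10. Both lengths are counted from the end of the span and not from a peak, so the full empty stretches are longer. The peak closest to the HOXC13 start was 37770 bp away in control and 56370 bp away in cadmium. In HOXA the longest empty stretch of the cadmium list was 34.6 kb and held the starts of HOXA9, HOXA10 and HOXA11, while that of the control list was 23.8 kb and held the starts of HOXA3, HOXA5, HOXA6 and HOXA7. In HOXB a gap of 44.2 kb in the control list and 47.4 kb in the cadmium list held the starts of HOXB2 and HOXB4. The median distance from a HOX start to the closest peak was 4710 bp in the control list and 5296 bp in the cadmium list. Over all protein-coding genes it was 0 bp in both lists. HOXB5 came closest among the starts outside a peak, 22 bp from a peak in either list.

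**Figure D2:**
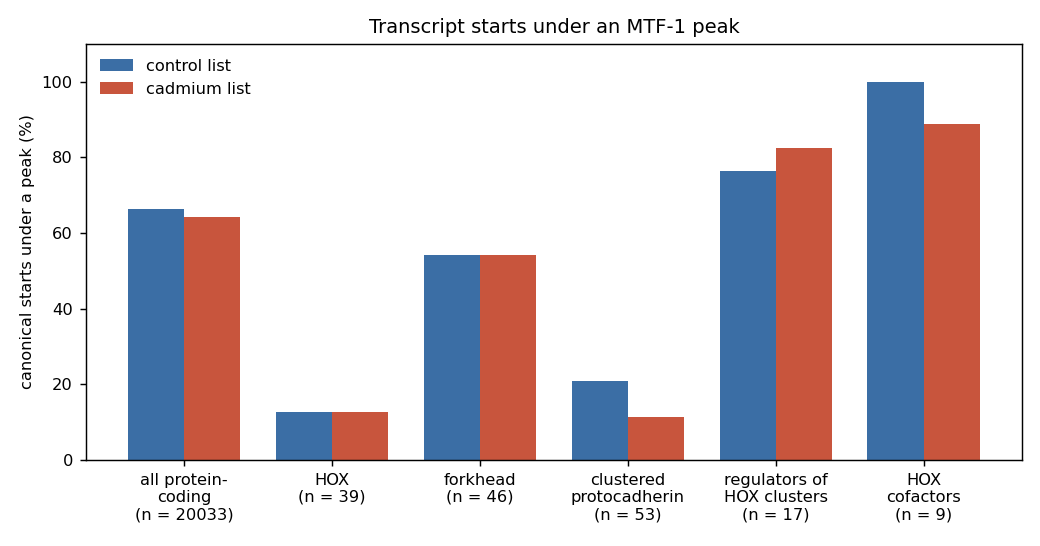
Share of genes (%) whose canonical transcript start lies under a peak of the control list (blue) or the cadmium list (red), for all protein-coding genes, HOX genes and 4 other gene groups, with the number of genes below each. The HOX bars stand at 12.8% in both lists and those of all protein-coding genes at 66.3% and 64.3%.

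Other gene families gave other shares. Among 46 forkhead genes, which are mostly dispersed, 25 had a start under a peak in each list (54.3%). Among 53 protocadherin genes, which like HOX genes lie in clusters, 11 did in control (20.8%) and 6 in cadmium (11.3%). These differences between families were not tested. When any annotated transcript start was allowed, 8 HOX genes had one under a control peak and 6 under a cadmium peak, against 70.8% and 68.7% of all genes.

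The lists parted at upstream starts. At the RefSeq start shared by HOXC4 and HOXC5, the 300-base promoter chr12:54016638-54016937 lay wholly under a control peak and had 0 bases under a cadmium peak. The control peak ran from 54016601 to 54018799 and the cadmium peak from 54017401 to 54018399, so the site was shared but the cadmium peak began beyond the start. The upstream RefSeq start of HOXA10, a gene of the uterus and hindlimb, was at chr7:27179812-27180111. All of its 300 bases were under a control peak and none under a cadmium peak. The canonical start of HOXA10 had no peak in either list, while that of HOXC5 was under a peak in both.

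Peaks covered 9.56% of the 4 clusters together in the control list and 5.33% in the cadmium list. In the whole genome they covered 4.22% and 2.94%, so the ratio of cadmium to control coverage was 0.557 in the clusters and 0.697 in the genome. In HOXA coverage was 5.29% in control and 3.92% in cadmium. In HOXB it was 9.98% and 5.23%. HOXC had the highest coverage in control, 13.4%, against 4.87% in the cadmium list, a ratio of 0.365. HOXD differed least, with 8.87% and 7.57%, a ratio of 0.854. The 4 clusters thus spanned 5.29% to 13.4% in control and 3.92% to 7.57% in cadmium, and HOXD rather than HOXC was the most covered in the cadmium list. Bases covered in both lists made up 81.2% of the control coverage of HOXD, 64.5% of HOXA, 48.6% of HOXB and 36.5% of HOXC. For the 4 clusters together this share was 52.4%, near the 55.3% of the genome. All cadmium peaks of HOXC lay inside control peaks, and 94.0% of the cadmium coverage of the 4 clusters lay under a control peak, against 79.3% in the genome.

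**Figure D3:**
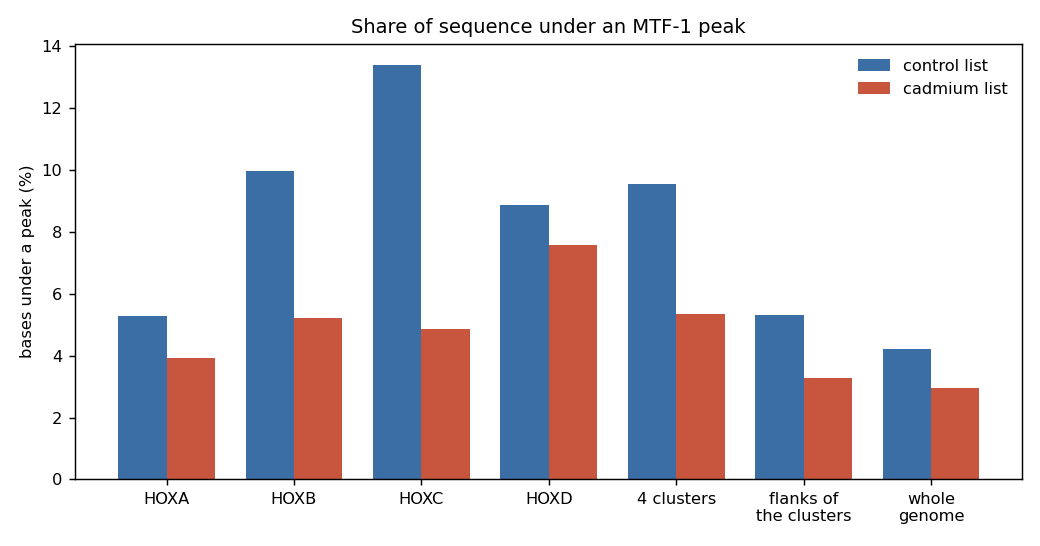
Share of bases (%) under a peak in the control list (blue) and the cadmium list (red) for each HOX cluster with 5 kb at either end, the 4 clusters together, the 100 kb on either side of the clusters, and chromosomes 1 to 22, X and Y. HOXC has the tallest control bar, at 13.4%, and HOXD the tallest cadmium bar, at 7.57%.

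The sequence beside the clusters was less covered except at HOXB. In the 100 kb on either side, coverage was 3.7% in control and 1.5% in cadmium for HOXA, 2.7% and 0.799% for HOXC, and 1.7% in each list for HOXD. Around HOXB it was 13.1% and 9.09%, above the cluster itself in both lists. Within the clusters, covered bases were richer in CpG than the rest, with 42.1 CpG per kb under control peaks, 49.3 under cadmium peaks and 27.8 outside peaks of either list. The 31 sites had a median CpG ratio of 0.548, against 0.246 over all sites, and a median GC content of 54.2% against 47.4%.

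Shared sites were mostly narrower in the cadmium list. Of the 22 shared sites, 16 covered more bases in control, 1 covered more in cadmium and 5 were of equal width. Over all 48626 shared sites, 58.0% were wider in control, 23.7% in cadmium and 18.3% equal. The median width of the shared HOX sites was 1799 bp in control (range 399 to 3799) and 1099 bp in cadmium (399 to 2999), and the median ratio of cadmium to control width was 0.750, against 0.833 over all shared sites. By cluster, the median ratio was 0.428 in HOXB, 0.535 in HOXC, 0.775 in HOXA and 0.846 in HOXD.

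**Figure D4:**
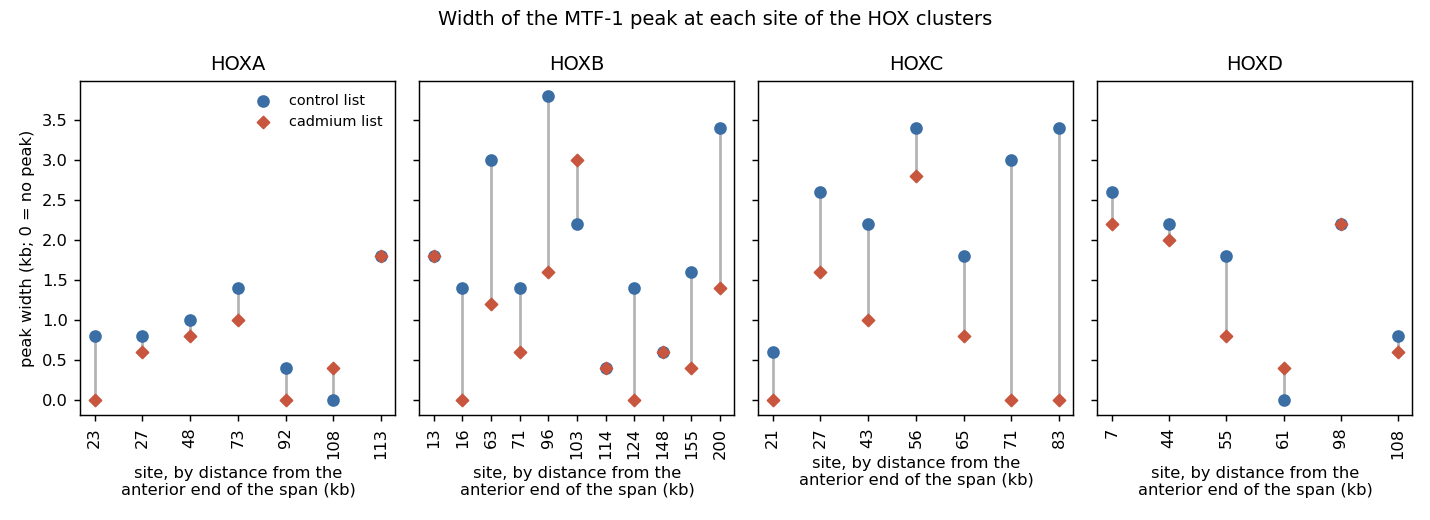
Width of the peak (kb) in the control list (blue circles) and the cadmium list (red diamonds) at each of the 31 sites, ordered within a cluster by distance from the anterior end of its span; 0 means that the list has no peak there. Red points lie below blue ones at most sites, and the 3 sites of HOXC with a red point at 0 include the 2 widest peaks found in control alone.

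In HOXB the widest control peak of all the clusters, 3799 bp from 48618001 to 48621799, lay in introns of the long HOXB7 record and over the untranslated end of HOXB9. The cadmium peak there was 1599 bp. The next site, from 48624801 to 48627799, covered the start of HOXB9, a gene of the thoracic region, and overlapped coding sequence of that gene. It was the one shared site that was wider in cadmium, 2999 bp against 2199 bp in control. At the intronic site of HOXB3 from 48584601 to 48587599 the width was 2999 bp in control and 1199 bp in cadmium. At HOXB13, a gene of the tail and prostate, the control peak of 3399 bp also overlapped its prostate-expressed neighbours PRAC1 and PRAC2. The cadmium peak of 1399 bp, from 48723801 to 48725199, did not reach PRAC1.

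In HOXC all 4 shared sites were narrower in cadmium. The site between HOXC9 and HOXC8, from 54003601 to 54006999, was widest in both lists, with 3399 bp in control and 2799 bp in cadmium. The site over HOXC5 and the hairpin of MIR615, from 54032601 to 54035199, had 2599 bp and 1599 bp. HOXC had 3 sites in control alone, and 2 of them were the widest such sites in the clusters. The wider, 3399 bp from 53976601 to 53979999, lay over the end of HOXC11 and the sequence beyond it. The other, 2999 bp from 53988401 to 53991399, lay over coding and untranslated exons of HOXC10, a gene of the lumbar region, and over an untranslated exon of HOXC6. The third, from 54040001 to 54040599, was in an intron of HOXC4.

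In HOXA the peaks were narrow, with a median width of 899 bp in control and 799 bp in cadmium. The widest, at the HOXA13 start and the lncRNA gene HOTTIP, was 1799 bp in each list, but ran from 27199801 to 27201599 in control and from 27200001 to 27201799 in cadmium. In HOXD the widest control peak, 2599 bp, lay at the HOXD1 start and was 2199 bp in cadmium. The intergenic site between HOXD13 and HOXD12, from 176096401 to 176098599, was 2199 bp with the same edges in both lists.

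The shares of HOX peaks found in a single list were near or below those of all peaks. Counting peaks that touch a HOX gene plus 5 kb at either side, 6 of 26 control peaks had no base in common with a cadmium peak (23.1%), while 28.0% of all control peaks did. Such peaks fell in 11 HOX windows (28.2%), against 33.2% of all windows. Of 22 cadmium peaks, 2 had none in common with a control peak (9.09%), while 15.1% of all cadmium peaks did. They fell in 3 HOX windows (7.69%), against 20.6% of all windows. HOX windows were shorter, with a median of 14216 bp against 37471 bp, so the shares of windows cannot be compared directly. The 2 cadmium peaks were each 399 bp wide, lying in an untranslated exon of HOXA13 (27196201 to 27196599) and in an exon of the antisense gene HOXD-AS2 near HOXD3 (176135001 to 176135399). When a peak counted as unique if less than 50% of it was covered by the other list, 13 of the 26 control peaks were unique, against 46.2% of all control peaks.

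The centres of 3 of these single-list sites are shown on the plus strand of hg38, namely those among the widest of each list whose central 300 bases hold at most 30 bases of untranslated exon. They are the control site beyond HOXC11 (chr12:53978150-53978449), a control site of 1399 bp between HOXB1 and HOXB2 (chr17:48539550-48539849) and the cadmium site in HOXD-AS2 (chr2:176135050-176135349). The last 2 lines show shared sites chosen after their values were seen. One lies beyond the HOXB7 record (chr17:48637850-48638149) and was 399 bp with the same edges in both lists, and the other lies beyond HOXD13 (chr2:176088250-176088549).
Control site beyond HOXC11: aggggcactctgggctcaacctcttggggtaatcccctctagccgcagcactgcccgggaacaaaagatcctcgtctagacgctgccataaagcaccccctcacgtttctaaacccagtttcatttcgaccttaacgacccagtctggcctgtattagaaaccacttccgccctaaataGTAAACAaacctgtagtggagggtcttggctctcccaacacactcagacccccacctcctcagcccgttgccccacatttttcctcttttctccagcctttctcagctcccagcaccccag
Control site between HOXB1 and HOXB2: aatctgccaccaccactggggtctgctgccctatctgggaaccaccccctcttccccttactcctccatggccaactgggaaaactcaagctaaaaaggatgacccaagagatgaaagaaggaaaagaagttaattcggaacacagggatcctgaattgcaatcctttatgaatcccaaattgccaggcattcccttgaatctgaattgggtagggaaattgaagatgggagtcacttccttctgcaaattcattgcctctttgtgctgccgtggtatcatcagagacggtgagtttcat
Cadmium site in HOXD-AS2: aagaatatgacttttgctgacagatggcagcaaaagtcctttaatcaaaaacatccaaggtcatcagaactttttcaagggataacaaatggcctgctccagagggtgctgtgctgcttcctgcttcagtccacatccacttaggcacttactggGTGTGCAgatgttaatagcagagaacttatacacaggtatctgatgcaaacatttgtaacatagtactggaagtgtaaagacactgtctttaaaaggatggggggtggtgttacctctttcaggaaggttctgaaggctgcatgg
Shared site beyond the HOXB7 record: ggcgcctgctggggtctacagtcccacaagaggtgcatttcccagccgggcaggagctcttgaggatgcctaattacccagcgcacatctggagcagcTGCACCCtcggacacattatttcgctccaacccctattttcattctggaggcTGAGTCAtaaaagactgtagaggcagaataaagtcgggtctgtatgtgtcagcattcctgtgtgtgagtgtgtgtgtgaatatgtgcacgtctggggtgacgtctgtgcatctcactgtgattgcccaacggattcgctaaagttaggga
Shared site beyond HOXD13: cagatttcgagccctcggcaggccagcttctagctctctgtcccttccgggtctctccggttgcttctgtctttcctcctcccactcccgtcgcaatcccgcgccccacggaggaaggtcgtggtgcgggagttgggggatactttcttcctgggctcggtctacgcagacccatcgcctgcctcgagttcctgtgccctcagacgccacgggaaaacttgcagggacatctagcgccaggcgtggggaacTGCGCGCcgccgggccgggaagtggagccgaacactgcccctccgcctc

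The site beyond the HOXB7 record was the only HOX site with an AP-1 match in its central 300 bases, 1 of 31 sites (3.23%), where 18.4% of all 77069 sites had one. The forkhead motif was in the centre of 3 HOX sites (9.68%), against 19.6% of all sites. The core of the metal response element was in 7 (22.6%), against 22.2%. Over their whole width, 8 of the 31 sites held an AP-1 match, 14 a forkhead match and 24 the core of the metal response element. No share over all sites is given here for whole widths, so these 3 counts cannot be called high or low. A match is a string of letters and not evidence of binding.

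Read gene by gene, 28 of 39 HOX windows, each a gene plus 5 kb at either side, held a control peak (71.8%), and 26 held a cadmium peak (66.7%). Over all protein-coding gene windows these shares were 83.5% and 83.0%, but HOX windows were short, with a median of 14216 bp against 37471 bp. In 10 HOX windows no list had a peak, among them those of HOXA4, HOXB4, HOXC12, HOXC13, HOXD9, HOXD10 and HOXD11 (25.6%, against 14.4% of all windows). The windows overlap, and a peak fell into up to 3 of them, so genes are not independent. The median share of a HOX window under a peak was 8.60% in control and 4.34% in cadmium, against 7.45% and 5.48% over all windows. More bases were covered in control in 25 HOX windows (64.1%), while 60.2% of all windows were so. More were covered in cadmium in 2 (5.13%), while 21.3% of all windows were so.

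**Figure D5:**
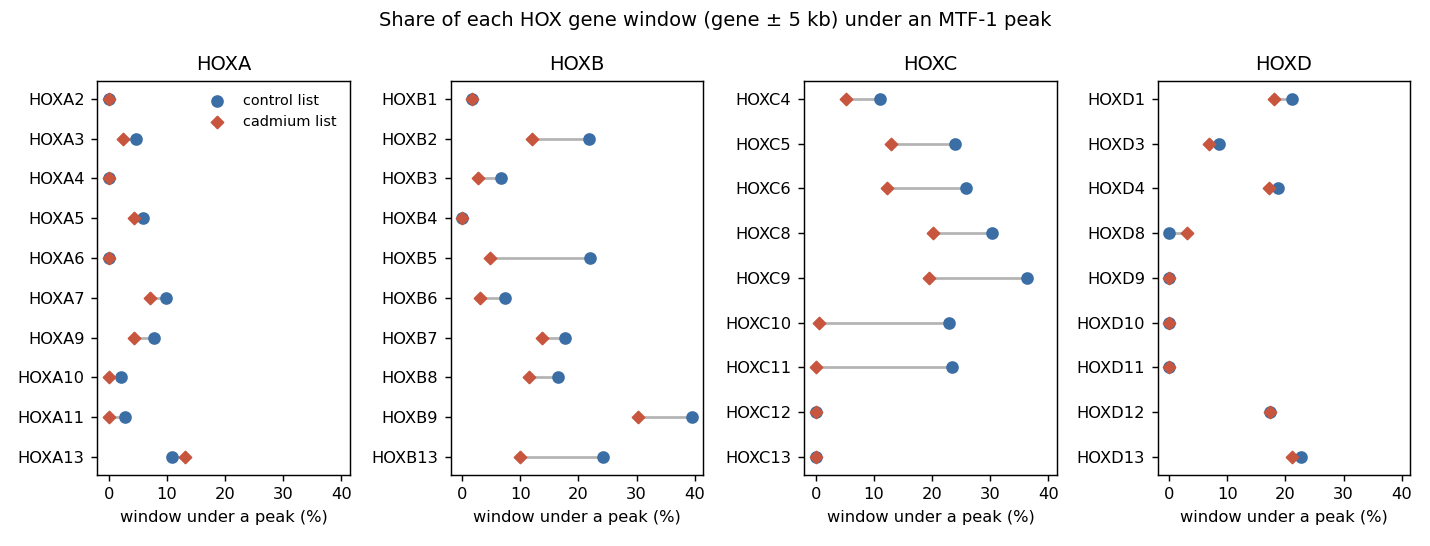
Share of HOX gene windows (the gene plus 5 kb at either side, %), 1 window left out, under a peak in the control list (blue circles) and the cadmium list (red diamonds), by cluster and in paralog order. HOXB9 is highest in both lists, at 39.5% and 30.2%, and the widest gaps are at HOXC10 and HOXC11.

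The largest differences were in HOXC. The HOXC11 window was covered over 23.4% in control and 0% in cadmium, and that of HOXC10 over 22.9% and 0.519%. The HOXC9 window had 36.3% and 19.5%, and that of HOXC6 25.9% and 12.3%. The windows of HOXC6, HOXC9 and HOXC10 share peaks, and all of the control coverage of HOXC11 was 1 peak found in control alone. In HOXB the largest differences were at HOXB5, with 21.9% and 4.78%, and HOXB13, with 24.3% and 10.0%. The exceptions in the other direction were HOXD8, with 0% in control and 3.07% in cadmium, and HOXA13, with 10.8% and 13.2%, and both rested on a cadmium peak of 399 bp. HOXB1 (1.69%) and HOXD12 (17.3%) were covered over the same share in both lists.

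Across clusters, paralog groups 10 and 11 were nearly free of cadmium peaks. HOXA10, HOXA11, HOXC10 and HOXC11 each had a control peak in their window, while in cadmium HOXA10, HOXA11 and HOXC11 had none and HOXC10 had 79 bp at its edge. HOXD10 and HOXD11 had no peak in either list. A single control peak of 399 bp, over an untranslated exon of HOXA10, lay in both HOXA windows. HOXA10, HOXA11 and HOXC11 were the windows with a peak in control alone (7.69% of HOX windows, 2.63% of all windows), and HOXD8 was the single window with a peak in cadmium alone (2.56%, against 2.04%). By position, the median window share of 8 anterior genes (groups 1 to 3) was 5.63% in control and 2.60% in cadmium, that of 15 central genes (groups 4 to 8) 11% and 5.29%, and that of 16 posterior genes (groups 9 to 13) 9.33% and 0.260%. In cadmium 8 of the 16 posterior windows held a peak, so the posterior median fell between windows with a peak and windows without. The highest share among them was 30.2%. Every position held windows with no peak in either list, and the highest cadmium windows of the 3 positions were those of HOXD1, HOXC8 and HOXB9.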

How the data were processed

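MTF-1 CUT&RUN was done in 2 control and 2 cadmium libraries. Before deposit, the authors removed adaptor sequence, placed the reads on hg38 using Bowtie2, pooled the replicates of a condition with SAMtools 1.8 and called peaks on the pooled reads with Epic2 at default settings. The submitters' processing notes list SICER 0.0.50. Each deposited list gives peak positions in bp on hg38, in bins of 200 bp, and a score column that holds 5 in every row and was not used. No control library is named in the sources used here, and no correction for copy number is described there. Library depth is unknown, so differences in coverage and in depth between the lists cannot be told apart.

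Overlaps, coverage and motifs were computed in Python 3.11.15 with numpy 2.4.6 and pandas 2.3.3 against GENCODE v44 and the hg38 sequence. The single mitochondrial peak of each list (1) was left out. Overlap code was checked on simulated intervals. Canonical starts are those of the Ensembl canonical transcript. Coordinates are 1-based. The members and lists were chosen with earlier results of these data known. All HOX genes entered the counts, the values of 1 gene are not reported here, nor shown in the map and the window plot, and those given in full were the highest windows, up to 6 of the largest differences in each direction (6 with more control bases, and the 2 there were with more cadmium bases), starts with a peak, and the widest peaks. Promoters and site centres were printed from RefSeq and hg38, except the centres of 2 sites in untranslated exons.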

Additional observations from a re-analysis of the deposited data

How the results depend on the processing

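Coverage, peak counts and gene counts were recomputed with other cluster ends, gene windows, starts, overlaps and peak widths. Coverage was judged against an exact binomial 95% interval over bins of 200 bp. Neighbouring bins of a peak are not independent, so the interval is only a yardstick for what moved and measures no spread. With peaks of at least 1000 bp alone, HOXA coverage moved to 2.73% in control and 1.54% in cadmium, coverage of the 4 clusters in cadmium moved to 3.84%, and no peak unique to cadmium (0) and no window with more cadmium bases (0) remained. With peaks of at least 400 bp, the count of unique cadmium peaks was also 0, because both are listed as 399 bp wide, just below this limit. With no flank around the genes, there was 1 unique cadmium peak, 15 windows had more control bases and 1 had more cadmium bases. With flanks of 10 kb, 1 window had more cadmium bases. Requiring 50% cover by the other list gave 13 unique control peaks, and allowing any transcript start gave 8 HOX genes with a start under a control peak. Control coverage exceeded cadmium coverage in each cluster under every setting run. No paired analysis was possible because the peak lists used here were called on merged replicates, and reads were not analysed here, and leaving out a replicate was not run for the same reason.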

Other observations

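A hand-made list of noncoding genes inside the clusters, which does not hold every one (MIR7704 and MIR3185, for example, are under shared sites and not on it), gave 24 genes found in the annotation. Of these 18 lncRNA and 6 microRNA genes, 7 had a control peak over any part of the gene and 8 a cadmium peak. For the lncRNA genes that was 33.3% in control and 38.9% in cadmium, against 44.4% and 41.7% of all lncRNA genes. For the microRNA genes it was 16.7% in each list, against 20.8% and 16.8% of all microRNA genes. HAGLR, which starts beside HOXD1, and MIR615, within HOXC5, were the only listed genes with a start under a peak, and they had it in both lists. That is 1 of 18 lncRNA genes (5.56%), against 28.0% of all lncRNA genes in control and 25.4% in cadmium, and 1 of 6 microRNA genes (16.7%), against 20.5% and 16.6%. HOTAIR, a lncRNA of HOXC known for its links to Polycomb, had no peak over it, and the closest peak was 1645 bp away in control and 20245 bp away in cadmium. MIR196A2, between HOXC10 and HOXC9, was 339 bp from a control peak and 3354 bp from a cadmium peak. The hairpins of MIR10A, MIR10B, MIR196A1 and MIR196B had no peak over them.

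Genes that work with or on the HOX clusters had a peak at their own start at about the rate of all protein-coding genes (66.3% in control and 64.3% in cadmium) or above it, which was not tested. Among 9 HOX cofactors (PBX, MEIS and PKNOX genes), 9 had the canonical start under a control peak and 8 under a cadmium peak. PKNOX2 was the exception, with its window covered over 11% in control and 0.573% in cadmium. Among 17 regulators of the clusters, 13 had such a start in control (76.5%) and 14 in cadmium (82.4%). RARB, a retinoic acid receptor, had its start under a peak in cadmium alone. Of the 17 regulator windows, 11 had more bases covered in control (64.7%, against 60.2% of all windows). In 5 more were covered in cadmium (29.4%, against 21.3%). EZH2, the Polycomb methyltransferase, had 23.8% of its window covered in control and 6.66% in cadmium, while MEN1, a cofactor of KMT2A, had 37.1% and 51.1%. These 2 were chosen after their values were seen. CDX1, CDX2 and CDX4, homeobox activators of the clusters, had no start under a peak, and neither did EVX1 and EVX2, the homeobox genes flanking HOXA and HOXD.

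At the shared HOX sites the lists mostly shared 1 edge. The edge at the lower coordinate was the same in both lists at 16 of 22 shared sites (72.7%), and the edge at the higher coordinate at 5 (22.7%). Over all shared sites these shares were 36.8% and 36.7%. This was noticed after the values were seen, and it was not tested.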
